A study of Mus musculus with 5 samples.

Results

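The Reg genes encode small secreted C-type lectins, named after the regenerating pancreatic islet, and 6 of the 7 listed mouse members had a row among the 19198 genes of the small intestine table used here. Members were taken by symbol, from a list selected on earlier results for their counts in these same libraries, between genotypes and within them. Reg1, Reg3a, Reg3b, Reg3d, Reg3g and Reg4 were found, and Reg2 was not analysed. The Cre-positive group held 2 mice carrying the Math1Cre*PR transgene and floxed muscarinic acetylcholine receptor 4 (mAchR4 fl/fl, gene Chrm4), and the Cre-negative group held 3 mAchR4 fl/fl littermates that lacked the transgene. Every mouse, of either genotype, was given RU486 by gavage (10 mg/kg, once a day over 4 days), the progesterone receptor ligand that activates Cre*PR. Math1 (Atoh1) drives the Cre in cells of the secretory lineage, so absorptive enterocytes and the non-epithelial cells of the gut wall were not its stated target. No Cre-positive mouse with unfloxed Chrm4 was included, so effects of active Cre and of the floxed allele cannot be told apart. The series design names the tissue as whole small intestine, and whether the RNA came from its full length or from a piece is not stated. Age, sex and strain are not given in the labels.

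In the gut, Reg3b and Reg3g are made by enterocytes and Paneth cells and released into the lumen, where Reg3g kills Gram-positive bacteria and helps keep them away from the epithelium. Their transcription is known to follow bacterial colonisation, through Myd88 in epithelial cells and through interleukin-22 from lymphoid cells acting on Stat3. Reg1, Reg2 and Reg3d are best known from the pancreas, and Reg4 marks secretory cells of the intestinal crypt, including enteroendocrine cells.

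Small intestine was sequenced as rRNA-depleted total RNA, 1 library a mouse, and library totals ran from 4681119 to 6618204 estimated counts. Levels are given as CPM, the count of a gene scaled to the size and composition of its library so that mice can be compared. Chrm4, the targeted gene, had 2.52 and 0.777 CPM in Cre-positive mice 1 and 2, against 0.959, 3.71 and 0.652 CPM in Cre-negative mice 1, 2 and 3. The groups overlap, and which part of the gene is floxed is not stated, so these values check neither genotype. Of 10 enterocyte markers, 10 were in the table in both groups, among them Vil1 at 603 and 1066 CPM in Cre-positive mice and 914, 738 and 916 CPM in Cre-negative mice.

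The level of the family varied more between mice of 1 genotype than between the genotypes, and that variation came almost wholly from Reg3b and Reg3g. Summed over the 6 genes, the level was 13930 and 2387 CPM in Cre-positive mice 1 and 2, against 137.8, 5582 and 1635 CPM in Cre-negative mice 1, 2 and 3. Those sums were 1.44% and 0.232% of all counts in Cre-positive libraries, against 0.0123%, 0.567% and 0.176% in Cre-negative libraries. Cre-positive 1 was the highest and Cre-negative 1 the lowest, and Cre-positive 2 lay inside the Cre-negative range. Reg3b and Reg3g together made up 99.8% and 98.1% of the family's counts in Cre-positive 1 and 2, and 84.7%, 99.3% and 97.2% in Cre-negative mice 1, 2 and 3. The log2 ratio of the group means of the sum was 1.73, and without Cre-positive 1 it was -0.04.

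**Figure D1:**
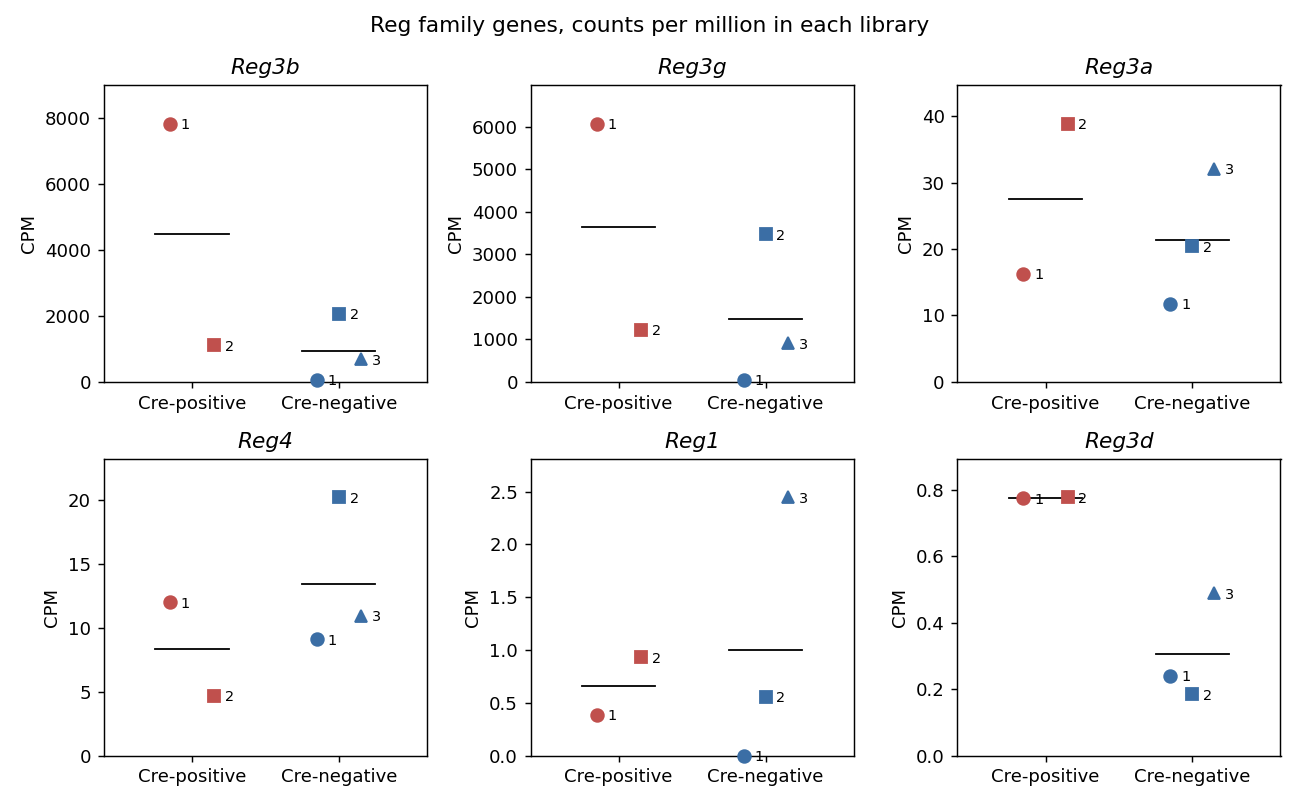
CPM of each of the 6 Reg genes (one panel a gene, linear axis from 0 CPM, a different scale in each panel) in Cre-positive mice on the left and Cre-negative mice on the right; a point is 1 library, its number the replicate, and the line the group mean. Reg3b reaches 7823 CPM in Cre-positive 1 and stands at 62.5 CPM in Cre-negative 1, while Reg1 and Reg3d stay under 3 CPM in every library.

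The family lies mainly in 1 cluster. Reg3b, Reg3d, Reg3a, Reg2, Reg1 and Reg3g sit in that order on chromosome 6, from 78370657 to 78468872 (GRCm38, the assembly that mm10 denotes, GENCODE M21), a span of 98.2 kb that holds 6 of the 7 genes. Reg3b (78370657 to 78373466, plus strand) and Reg3g (78466269 to 78468872, minus strand) stand at opposite ends of it. Reg4 lies apart on chromosome 3 (98222156 to 98236748, plus strand). No exon of any member overlapped an exon of another annotated gene on either strand.

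Promoters of the 4 genes with enough counts to be tested are printed here, because Reg3b and Reg3g moved together across the mice and Reg3a and Reg4 did not. Whether promoter sequence has any part in that was not tested. Each is the 150 bases before the start site, read 5′ to 3′ on the gene's strand, from RefSeq on GRCm38.p6. They lie at chr6:78370735-78370884 (plus) for Reg3b, chr6:78468875-78469024 (minus) for Reg3g, chr6:78380559-78380708 (plus) for Reg3a and chr3:98222006-98222155 (plus) for Reg4. The RefSeq start of Reg3b lies inside the GENCODE gene span, so its printed promoter does too. Capitals mark TATAAA, the core of a TATA box, and TTCNNNGAA, the letters bound by STAT proteins.
Reg3b: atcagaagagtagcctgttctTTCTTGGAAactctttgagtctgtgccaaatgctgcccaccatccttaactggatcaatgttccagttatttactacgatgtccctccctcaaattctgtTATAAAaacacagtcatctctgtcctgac
Reg3g: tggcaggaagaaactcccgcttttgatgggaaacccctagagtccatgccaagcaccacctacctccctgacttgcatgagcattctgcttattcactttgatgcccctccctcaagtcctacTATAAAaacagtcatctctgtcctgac
Reg3a: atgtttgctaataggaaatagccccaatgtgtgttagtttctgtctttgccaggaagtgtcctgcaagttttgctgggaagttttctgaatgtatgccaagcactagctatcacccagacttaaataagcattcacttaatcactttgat
Reg4: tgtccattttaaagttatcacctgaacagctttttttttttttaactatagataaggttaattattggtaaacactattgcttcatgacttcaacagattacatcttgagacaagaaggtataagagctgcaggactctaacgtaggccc
Over 250 bases before the start, the Reg3b and Reg3g promoters had 173 identical bases in a global alignment, the most of the 21 pairs among the 7 genes. As a share of aligned bases, identity was 70.0% for this pair, 71.9% for Reg3a with Reg3g and 69.9% for Reg3a with Reg3b. By that measure the pair did not stand apart from Reg3a. The Reg3b and Reg3g promoters ended in an identical run of 20 bases, the longest of the 21 pairs. TATAAA began at -29 in Reg3b, -27 in Reg3g, and -30 in both Reg1 and Reg2. It was in none of the 300-base Reg3a, Reg3d and Reg4 windows, and 13.6% of all 32851 mouse promoter windows held it on either strand. TTCNNNGAA, which reads the same on both strands, began at -129 in Reg3b and at -238 in Reg3d and was absent from the other 5 windows, against 8.3% of all windows. The searched motifs did not overlap each other, and a match of letters is not evidence of binding.

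Reg3b and Reg3g, the bactericidal pair, had nearly the same profile across the 5 mice. Reg3b had 7823 and 1114 CPM in Cre-positive mice 1 and 2, against 62.5, 2067 and 679 CPM in Cre-negative mice 1, 2 and 3. Reg3g had 6077 and 1228 CPM in Cre-positive mice 1 and 2, against 54.1, 3473 and 910 CPM in Cre-negative mice 1, 2 and 3. Both genes were highest in Cre-positive 1, then Cre-negative 2, Cre-positive 2, Cre-negative 3 and Cre-negative 1, so the groups interleave. From the highest to the lowest mouse, Reg3b spanned 125-fold and Reg3g 112-fold. In deposited counts, Reg3b ranged from 261 in Cre-negative 1 to 40425.5 in Cre-positive 1, so counting error is far smaller than these differences.

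The proportion between the 2 lectins changed far less than their level. Per base of transcript (783 for Reg3b and 771 for Reg3g), the Reg3b to Reg3g ratio was 1.27 and 0.893 in Cre-positive mice 1 and 2, against 1.14, 0.586 and 0.735 in Cre-negative mice 1, 2 and 3. Reg3b was therefore the higher of the pair in Cre-positive 1 and Cre-negative 1, the libraries with the most and the least of both. Ranked by CPM per kilobase over all genes with a known length, Reg3b was number 13 and 42 in Cre-positive 1 and 2, and number 439, 32 and 52 in Cre-negative mice 1, 2 and 3. Reg3g was number 19 and 38 in Cre-positive mice, and number 525, 27 and 42 in Cre-negative mice.

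**Figure D2:**
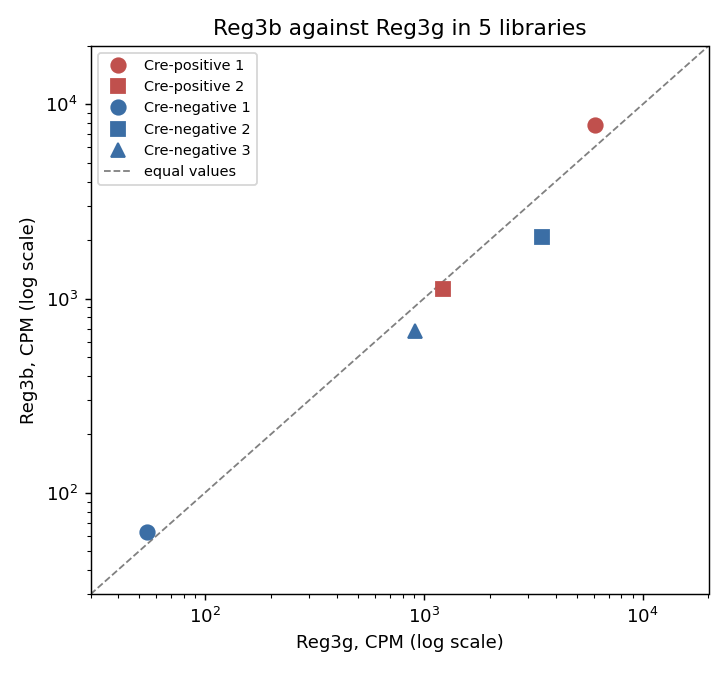
Reg3b against Reg3g in CPM, both axes logarithmic; each point is 1 library (red Cre-positive, blue Cre-negative) and the dashed line marks equal values. The libraries lie along the line from 54.1 CPM of Reg3g in Cre-negative 1 to 6077 CPM in Cre-positive 1, with Cre-negative 2 farthest below it.

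Deposited values of Reg3b and Reg3g carried decimals (more than 0.005 away from an integer) in 4 of 5 libraries and were whole in Cre-negative 1. Those of the other 4 members were whole in all 5. Over all genes, 21.0% and 21.5% of values were not whole in Cre-positive 1 and 2. The share was 19.6%, 21.4% and 21.7% in Cre-negative 1, 2 and 3, so decimals are not particular to the pair. The longest run of bases that the Reg3b and Reg3g transcripts share is 35 bases of coding sequence in exon 2. It is shown here because a read lying within it would match both genes. It lies at chr6:78371230-78371264 (plus) in Reg3b and chr6:78468503-78468537 (minus) in Reg3g (GRCm38), in lower case throughout as no part is singled out.
Shared run: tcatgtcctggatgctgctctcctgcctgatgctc
Over whole transcripts the pair had 74.7% identity in aligned bases, within a range of 61.2% to 80.4% over the 21 pairs of the family. No window of 50 bases from any Reg3b or Reg3g transcript was found in a transcript of another gene in GENCODE M21. Only exact matches were searched, read length is not stated, and how many reads were divided was not tested. Summing both genes into 1 row gave a log2 fold change of 1.75 ± 1.40 (SE; edgeR adjusted p = 0.976), a value that does not depend on any division of reads between the pair.

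Reg3a and Reg4 were far lower, and each had its own profile. Reg3a, a further lectin of the chromosome 6 cluster, had 16.3 and 38.9 CPM in Cre-positive mice 1 and 2, against 11.7, 20.4 and 32.1 CPM in Cre-negative mice 1, 2 and 3. It was highest in Cre-positive 2 and Cre-negative 3, not in the mice richest in Reg3b, and the groups overlap. Reg4, the crypt secretory cell member, had 12.0 and 4.66 CPM in Cre-positive mice 1 and 2, against 9.11, 20.2 and 10.9 CPM in Cre-negative mice 1, 2 and 3. Cre-negative 2 was highest for Reg4 and Cre-positive 2 lowest, and the groups overlap again. Between the highest and the lowest mouse Reg3a spanned 3.31-fold and Reg4 4.33-fold.

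Reg1 and Reg3d, both better known from the pancreas, were close to the limit of detection. Reg1 had 2 and 6 counts in Cre-positive mice 1 and 2, against 0, 3 and 15 counts in Cre-negative mice 1, 2 and 3. The count of 0 in Cre-negative 1 allows up to 0.719 CPM (3 counts), counting error only. Reg3d had 4 and 5 counts in Cre-positive mice, against 1, 1 and 3 in Cre-negative mice. Neither passed the filter on low counts, and no fold change is given for them. Of 17 pancreatic acinar markers 3 were in the table, with a summed level of 3.10 and 1.71 CPM in Cre-positive mice 1 and 2, against 4.55, 3.15 and 2.93 CPM in Cre-negative mice 1, 2 and 3. Pnlip, Cpa1, Ctrb1 and Ptf1a, which define acinar cells, were among the 14 with no row in the table used. Fewer cells of a type and less RNA per cell cannot be told apart in bulk tissue, here or below.

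The comparison of genotypes asked what changed when Chrm4 was targeted in Math1-expressing cells, and the fold changes of the Reg genes are given as a description because the members were chosen with results known. The quasi-likelihood test of edgeR, run on 14352 genes, called 0.00% of them at an adjusted p under 0.05, and 0 of the 4 Reg genes that passed the filter were called (adjusted p = 0.977 for each). At an unadjusted p under 0.05 there were 485 genes in all, 230 higher and 255 lower, and 0 of the 4 Reg genes. Groups without overlap were found for 18.0% of the genes and for 0 of the 4 Reg genes. DESeq2 called 19 genes, or 0.132%, and 0 of the 4 Reg genes. The median log2 fold change of the 4 was 0.83, with 3 positive and 1 negative, against -0.04 over all genes tested.

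Reg3b averaged 4468 ± 4744 CPM in Cre-positive mice and 936 ± 1027 CPM in Cre-negative mice (SD, n = 2 and 3), with a log2 fold change of 2.25 ± 1.36 (SE). Reg3g averaged 3652 ± 3429 CPM in Cre-positive mice and 1479 ± 1779 CPM in Cre-negative mice, with a log2 fold change of 1.30 ± 1.43. For both genes the SD within a group was close to or above the group mean. Reg3a averaged 27.6 ± 15.98 CPM in Cre-positive mice and 21.4 ± 10.2 CPM in Cre-negative mice, with a log2 fold change of 0.36 ± 0.50. Reg4 was the negative one, at 8.33 ± 5.19 CPM in Cre-positive mice and 13.4 ± 5.95 CPM in Cre-negative mice and a log2 fold change of -0.70 ± 0.52.

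No Reg fold change was independent of which mice were included. With Cre-positive 1 left out, it was, in log2, 0.27 for Reg3b, -0.25 for Reg3g, 0.88 for Reg3a and -1.50 for Reg4. With Cre-positive 2 left out it was 3.08 for Reg3b, 2.06 for Reg3g, -0.37 for Reg3a and -0.13 for Reg4. Leaving out Cre-negative 2 gave 3.59 for Reg3b, 2.92 for Reg3g and -0.28 for Reg4, and leaving out Cre-negative 1 gave 1.73, 0.77 and -0.88 for these 3 genes. Leaving out Cre-negative 3 gave 2.10 for Reg3b, 1.08 for Reg3g, 0.80 for Reg3a and -0.79 for Reg4. Reg3b stayed positive and Reg4 negative in all 5 of these fits, while Reg3g and Reg3a each turned negative in 1.

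**Figure D3:**
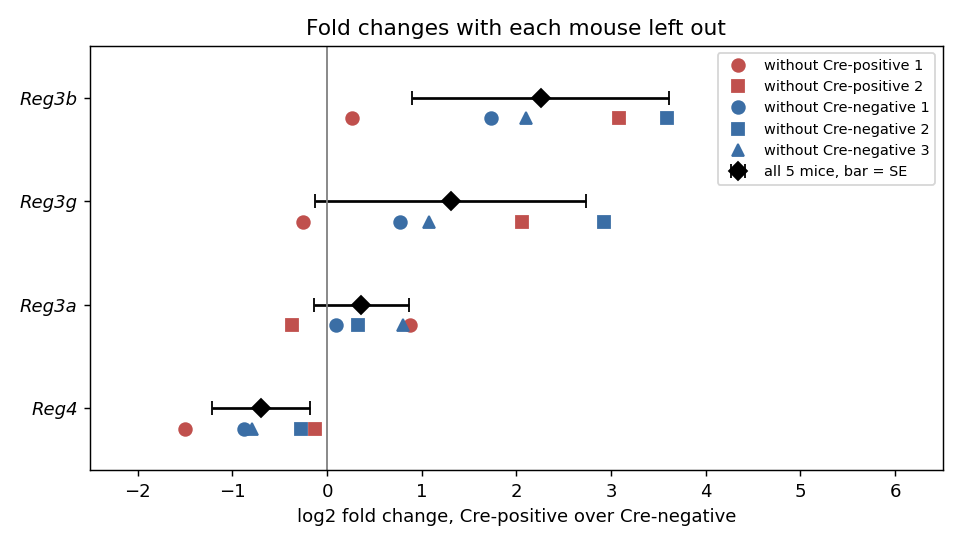
Log2 fold change (Cre-positive mice over Cre-negative mice) of the 4 Reg genes tested; black diamonds are the fit to all 5 mice with its SE as the bar, and coloured points are fits that leave out 1 mouse (red a Cre-positive, blue a Cre-negative mouse). Reg3b moves between 0.27 and 3.59, and Reg3g crosses 0 without Cre-positive 1.

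The spread among the 3 Cre-negative littermates, was among the widest of all genes for Reg3b and Reg3g; it was in view when the members were chosen, so it is a description. Between the highest and the lowest Cre-negative mouse, Reg3g spanned 5.99 and Reg3b 5.04 on the log2 CPM scale, where the median gene tested spanned 0.62. Of 14352 genes, 2 had a wider range than Reg3g and 14 a wider range than Reg3b. As CPM, the highest Cre-negative mouse had 64.1-fold the Reg3g and 33.0-fold the Reg3b of the lowest. Reg3a spanned 1.42, wider than 86.4% of genes tested, and Reg4 spanned 1.12, wider than 77.6%. Low genes vary more from counting alone, but among the 7831 genes with a mean of at least 10 CPM, a threshold added after seeing the data, 2 genes still exceeded Reg3g and 13 exceeded Reg3b. The 2 Cre-positive mice differed by 2.81 for Reg3b and 2.31 for Reg3g on the same scale.

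**Figure D4:**
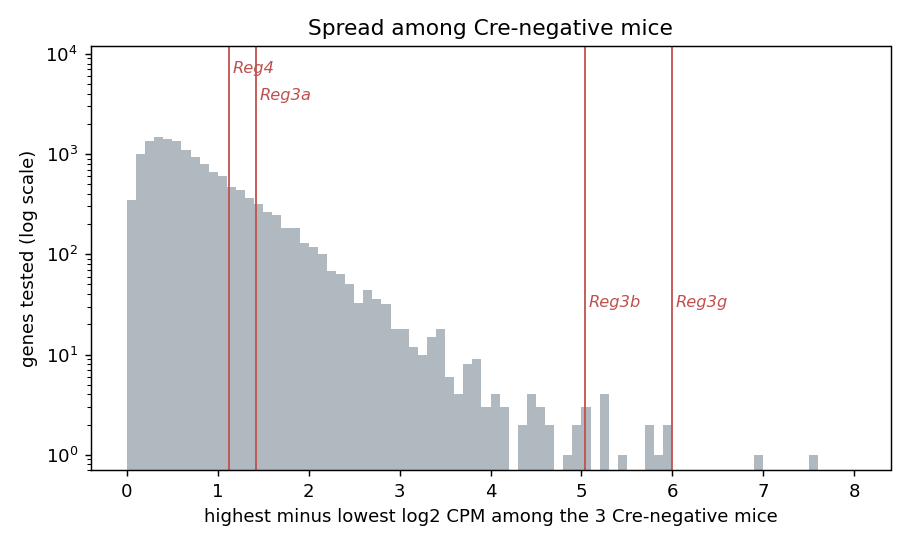
Number of genes tested (log axis) by the difference between the highest and the lowest log2 CPM among the 3 Cre-negative mice, with the Reg genes marked in red. Reg4 at 1.12 and Reg3a at 1.42 lie in the shoulder of the distribution, and Reg3b at 5.04 and Reg3g at 5.99 lie in its far tail.

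Genes most like each Reg gene were ranked by the root mean square difference of log2 CPM over the 5 libraries, each gene centred on its mean, among 7106 genes. These were the 7831 genes with a mean of at least 10 CPM, less predicted gene models, pseudogenes, unnamed sequence clones and immunoglobulin or T cell receptor genes. Reg3b and Reg3g were each other's closest gene, with a difference of 0.41, against 2.29 for the variation of Reg3b and 2.35 for that of Reg3g about their own means. Next to Reg3b came Nos2, the inducible nitric oxide synthase, at 0.68 and Dmbt1, a secreted scavenger receptor protein that binds bacteria, at 0.70. For Reg3g the same 2 genes followed, Dmbt1 at 0.64 and Nos2 at 0.81. Nos2 had 226 and 58.8 CPM in Cre-positive mice 1 and 2, against 7.43, 106 and 30.1 CPM in Cre-negative mice 1, 2 and 3. Dmbt1 had 3347 and 765 CPM in Cre-positive mice, against 72.1, 1647 and 1215 CPM in Cre-negative mice. Both were highest in Cre-positive 1 and lowest in Cre-negative 1, as the lectin pair was.

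Reg3a was closest to Tnfsf10, the death ligand TRAIL, at 0.14, then to Apol10a at 0.15 and Rmdn3 at 0.16. Tnfsf10 had 103 and 212 CPM in Cre-positive mice 1 and 2, against 74.0, 98.2 and 171 CPM in Cre-negative mice 1, 2 and 3. Reg4 was closest to Cp, the copper oxidase ceruloplasmin, at 0.20, then to Chl1, a neural adhesion molecule gene, at 0.24 and Asns, asparagine synthetase, at 0.27. Reg3a and Reg4 each differed from Reg3b by 2.20, about as much as Reg3b varied about its own mean (2.29), so this measure reflects mainly the wider swing of Reg3b. Over 5 libraries these likenesses are descriptions, and all values share the same 5 RNA samples.

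The order of the 5 mice shown by Reg3b and Reg3g was shared by 210 of 14352 genes tested (1.46%), the pair included. Of the genes in the fixed lists, those with that order were Nos2 and Lypd8 among the defence genes and Ms4a1 (CD20) among the B cell genes. Ms4a1 had 42.8 and 1.40 CPM in Cre-positive mice 1 and 2, against 0.479, 2.41 and 0.815 CPM in Cre-negative mice 1, 2 and 3. Outside Cre-positive 1 it was near the limit of detection, so its order among those mice is uncertain. Lypd8, a goblet and enterocyte protein that holds flagellated bacteria off the epithelium, had 1335 and 719 CPM in Cre-positive mice 1 and 2, against 193, 853 and 670 CPM in Cre-negative mice 1, 2 and 3.

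Other genes that microbes induce in the epithelium were mixed in direction. Of 16 fixed genes 15 were in the table and 12 were tested, with 6 positive, 6 negative and 0 called, and a median log2 fold change of -0.02. Their summed level was 4869 and 3698 CPM in Cre-positive mice 1 and 2, against 1602, 4253 and 3627 CPM in Cre-negative mice 1, 2 and 3. That sum, unlike several single genes in it, had the same order of mice as Reg3b and Reg3g, narrowly between Cre-positive 2 and Cre-negative 3. Pigr, the receptor that carries IgA into the lumen, had 2472 and 2280 CPM in Cre-positive mice 1 and 2, against 700, 1649 and 2649 CPM in Cre-negative mice 1, 2 and 3. Pigr was the largest member of the sum in every library, so the sum does not stand for the list evenly. Duox2, an epithelial hydrogen peroxide source, had 417 and 382 CPM in Cre-positive mice, against 456, 891 and 105 CPM in Cre-negative mice. Tifa, an adaptor that senses a bacterial sugar, had 175 and 132 CPM in Cre-positive mice, against 47.2, 375 and 89.3 CPM in Cre-negative mice. Fut2, the fucosyltransferase that decorates the epithelium, was named after its values were seen. It had 21.3 and 2.18 CPM in Cre-positive mice, against 5.75, 76.2 and 0.978 CPM in Cre-negative mice. Duox2, Tifa and Fut2 were highest in Cre-negative 2. Cre-negative 1, the mouse poorest in both lectins, was lowest for Pigr and Tifa but not for Duox2 or Fut2.

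Genes of interleukin-22 and Stat3 signalling, a list that mixes activators with inhibitors and a target, had no common direction. Of 16 such genes 13 were in the table and all 13 were tested, with 5 positive, 8 negative and 0 called, and a median log2 fold change of -0.15. Because the list is mixed, this tally does not measure the activity of the pathway. Il22, Il23a and Il17a, the cytokine genes themselves, had no row in the table used. Il22ra1, the receptor chain that epithelium needs to sense interleukin-22, had 52.2 and 112 CPM in Cre-positive mice 1 and 2, against 89.6, 89.1 and 72.8 CPM in Cre-negative mice 1, 2 and 3. Stat3 had 97.0 and 146 CPM in Cre-positive mice, against 136, 128 and 101 CPM in Cre-negative mice. Cre-positive 1, the library with the most Reg3b, was thus the lowest of all 5 for both. Jak1, a kinase that acts with Stat3, had 147 and 116 CPM in Cre-positive mice, against 112, 98.2 and 102 CPM in Cre-negative mice, highest in Cre-positive 1. Il22ra2, the soluble binding protein that blocks interleukin-22, had 13.3 and 3.42 CPM in Cre-positive mice, against 0.719, 2.59 and 2.44 CPM in Cre-negative mice, also highest in Cre-positive 1, with a log2 fold change of 2.06 ± 0.70 (edgeR adjusted p = 0.977). Socs3, a feedback inhibitor and target of Stat3, had 16.45 and 13.4 CPM in Cre-positive mice, against 17.0, 38.0 and 11.7 CPM in Cre-negative mice. Il6 had 6.39 and 3.42 CPM in Cre-positive mice, against 28.8, 18.0 and 8.47 CPM in Cre-negative mice, a log2 fold change of -1.91 ± 0.58 (edgeR adjusted p = 0.977). It was highest in Cre-negative 1, where both lectins were lowest. Myd88 had 8.90 and 13.2 CPM in Cre-positive mice, against 18.0, 10.7 and 9.29 CPM in Cre-negative mice.

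**Figure D5:**
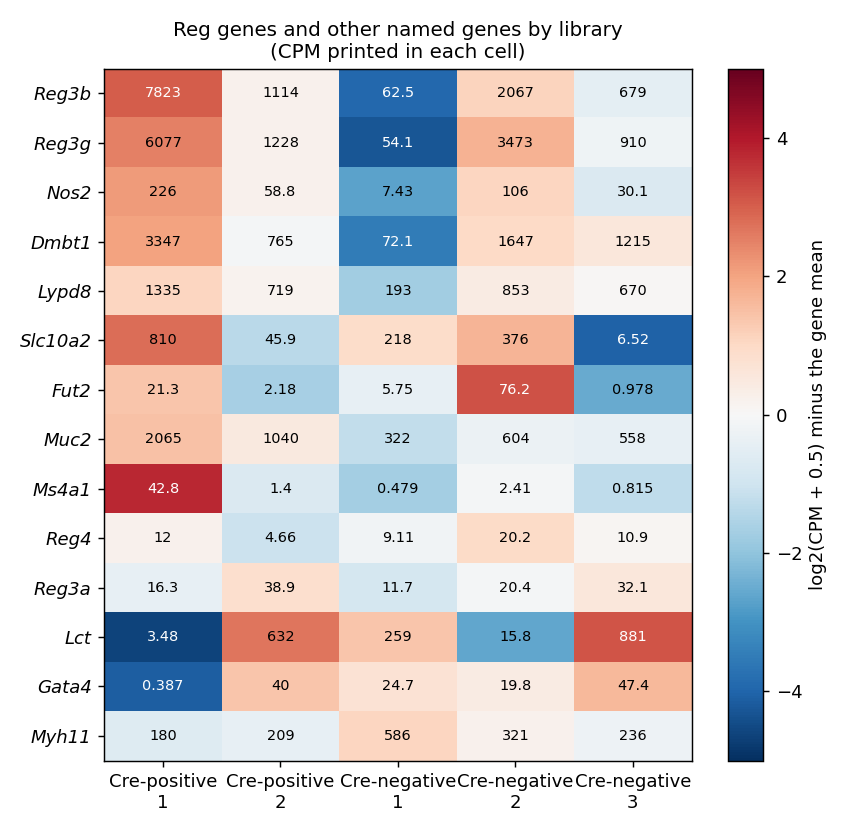
Reg genes and other named genes (rows) in the 5 libraries (columns, Cre-positive on the left); the number in a cell is CPM and the colour is log2(CPM + 0.5) minus the gene's mean, red above and blue below it. Reg3b, Reg3g, Nos2 and Dmbt1 are reddest in Cre-positive 1 and bluest in Cre-negative 1. The same holds for Lypd8, Ms4a1 and the goblet marker Muc2. Slc10a2 is also reddest in Cre-positive 1 but bluest in Cre-negative 3, and Lct is bluest in Cre-positive 1.

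Markers of position along the intestine differed between the libraries, and their part in the Reg values was not tested. Of 7 distal genes 7 were in the table, with a summed level of 2207 and 1938 CPM in Cre-positive mice 1 and 2, against 2605, 1316 and 816 CPM in Cre-negative mice 1, 2 and 3. Slc10a2, the ileal bile acid transporter, had 810 and 45.9 CPM in Cre-positive mice, against 218, 376 and 6.52 CPM in Cre-negative mice. Of 9 proximal genes 8 were in the table, with a summed level of 274 and 787 CPM in Cre-positive mice, against 387, 188.5 and 1149 CPM in Cre-negative mice. Lct, the lactase of the proximal gut, had 3.48 and 632 CPM in Cre-positive mice, against 259, 15.8 and 881 CPM in Cre-negative mice. Gata4, a regulator absent from the ileum, had 0.387 and 39.95 CPM in Cre-positive mice, against 24.7, 19.8 and 47.4 CPM in Cre-negative mice, and Fabp1 was at 0 CPM in Cre-positive 1. Cre-positive 1 and Cre-negative 2, highest for both lectins, had the most Slc10a2 and the least Lct. In those 2 libraries Slc51a and Slc51b were also highest, and Gata4, Fabp1, Onecut2 and Slc46a1 lowest, narrowly for Slc51a and Slc46a1. Fabp6 had 47.6 and 6.37 CPM in Cre-positive mice, against 47.7, 61.3 and 0.652 CPM in Cre-negative mice. Its level in Cre-negative 1 thus nearly equalled that in Cre-positive 1. Fgf15, Cubn, Amn, Cybrd1, Slc40a1 and Slc11a2 ran differently. Cubn, the distal receptor for vitamin B12 with intrinsic factor, had 883 and 1590 CPM in Cre-positive mice, against 2021, 554 and 659.5 CPM in Cre-negative mice. Slc40a1, the iron exporter counted among the proximal genes, had 234 and 25.2 CPM in Cre-positive mice, against 19.4, 96.7 and 8.63 CPM in Cre-negative mice. Cubn was highest in Cre-negative 1, where the lectins were lowest, while Slc40a1 was highest in Cre-positive 1 and Cre-negative 2, where they were highest. Cubn was the largest member of the distal sum in every library. Slc40a1 was the largest member of the proximal sum in Cre-positive 1 and Cre-negative 2. Reg3a ran with Lct at the upper end: both were highest in Cre-positive 2 and Cre-negative 3.

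Marker sums of other cell types differed between the libraries without following the lectins through all 5, and their part in the Reg values was not tested. Smooth muscle markers (8 of 8 in the table) summed to 1232 and 1489 CPM in Cre-positive mice 1 and 2, against 3727, 1880 and 1463 CPM in Cre-negative mice 1, 2 and 3, so the library lowest in Reg3b and Reg3g had the highest muscle sum. Enterocyte markers summed to 16560 and 36970 CPM in Cre-positive mice, against 26730, 18530 and 31440 CPM in Cre-negative mice. The 2 libraries highest in the lectin pair thus had the lowest enterocyte sums, and Cre-negative 1 lay in the middle. Goblet cell markers (8 of 8 in the table) summed to 5080 and 2281 CPM in Cre-positive mice, against 574, 994 and 1364 CPM in Cre-negative mice. Paneth cell markers (9 of 9 in the table) summed to 1778 and 1837 CPM in Cre-positive mice, against 1440, 3061 and 2703 CPM in Cre-negative mice. Cre-negative 1 was lowest for both secretory lists, but Cre-negative 2, second for both lectins, had the second lowest goblet sum and the second highest muscle sum. The median log2 fold change was 2.50 for the 7 goblet genes tested and -0.33 for the 9 Paneth genes, against -0.04 over all genes tested, and 0 genes of either list were called.

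Enteroendocrine markers (13 of 13 in the table, 6 tested) summed to 79.3 and 40.1 CPM in Cre-positive mice, against 26.1, 20.9 and 36.0 CPM in Cre-negative mice. Reg4 was highest in Cre-negative 2, the library with the lowest such sum. B and plasma cell markers (8 of 9 in the table) summed to 593.5 and 42.75 CPM in Cre-positive mice, against 22.05, 29.65 and 92.2 CPM in Cre-negative mice, and Cd79a was at 0 in every library but Cre-positive 1. T cell and innate lymphoid markers (7 of 8 in the table) summed to 74.7 and 46.0 CPM in Cre-positive mice, against 26.8, 25.4 and 33.1 CPM in Cre-negative mice. Cre-negative 2, second for Reg3b and Reg3g, had low lymphocyte sums, and Reg3b in it was 2067 CPM.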

How the data were processed

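Rows were taken from 1 table of estimated counts per gene that the authors deposited, with 1 column a mouse. Partek and mm10 are named in the submitters' processing notes; the aligner, the annotation, the use of strand and the rule for dividing reads are not stated there. The lowest gene total was 10. Estimated counts were rounded, filtered with filterByExpr (minimum count 10), scaled by TMM and fitted on genotype with edgeR 4.0.16 (R 4.3.3, robust quasi-likelihood, Benjamini-Hochberg over 14352 genes, threshold 0.05), a fit tested on simulated data. The filter needs 2 libraries, so Cre-positive mice alone can bring a gene past it. SE was taken as the size of the log2 fold change over the root of its F statistic. Log2 CPM used a prior count of 2. Replicate numbers follow record order. Nothing in the labels beyond a mouse number says how samples were handled, so p-values measure the spread between these samples. Alternatives were scaling by total counts, upper quartile or RLE, 2 other filters, DESeq2 1.42.0, limma 3.58.1 voom, no robust estimation, no rounding and leaving out each mouse. Members and lists were chosen with earlier results of these data known. Named genes were all members, up to 4 genes a list by mean CPM or at 0, and the 3 genes closest in pattern to each member. Nos2 and Fut2 in the defence list, Il6, Il22ra2, Socs3, Myd88, Gata4, Vil1, Cd79a and Ms4a1 fall outside that rule and were picked with their values known. So do Fabp6, Fgf15, Amn, Onecut2, Slc46a1 and Cybrd1, which were named to complete the lists of position markers. Transcripts are GENCODE M21 (98.6% of symbols had a length), and promoters are RefSeq (7 of 7 matched).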

Additional observations from a re-analysis of the deposited data

How the results depend on the processing

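No gene was called in the main edgeR fit, and DESeq2 called 19. Leaving out each mouse in turn gave 0 to 58 calls, the 58 without Cre-positive 2. The log2 fold change of Reg4 ran from -1.50 to -0.13 over the same fits, where its value without Cre-positive 1 moved by more than the spread between mice. Reg3b ran from 0.27 to 3.59, Reg3g from -0.25 to 2.92, Reg3a from -0.37 to 0.88, and the log2 ratio of the family sum from -0.04 to 3.202, each within that spread. Scaling, filtering, rounding and the other tools turned no sign of the 4 genes. Limma-voom gave the widest other shift, 2.35 for Reg3g, and summing Reg3b with Reg3g, an alternative chosen after seeing the data, gave 1.75. The design has 2 against 3 mice and a biological coefficient of variation of 33.1% over all genes, and the smallest difference it could detect was not computed. No paired analysis was possible because the labels give the mice no shared replicate numbers.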

Other observations

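The genes that varied as widely as Reg3b and Reg3g among the Cre-negative littermates were mostly lowest in a different mouse. Most of them were highest in the same mouse as the lectins, Cre-negative 2. These genes were chosen after their values were seen. The 2 genes with a wider range than Reg3g were Pla2g4c, a phospholipase gene, and Tat, tyrosine aminotransferase. Pla2g4c had 105.5 and 142 CPM in Cre-positive mice 1 and 2, against 3165, 3458 and 18.2 CPM in Cre-negative mice 1, 2 and 3. Suox, sulfite oxidase, had 625 and 92.8 CPM in Cre-positive mice, against 187, 394 and 9.78 CPM in Cre-negative mice. Slc13a1, a sulfate transporter gene, had 633 and 95.4 CPM in Cre-positive mice, against 174, 380 and 11.1 CPM in Cre-negative mice. Pla2g4c, Suox and Slc13a1 were lowest in Cre-negative 3, where Reg3b had 679 CPM, and not in Cre-negative 1, where Reg3b had 62.5 CPM. Among the Cre-negative mice they were highest in Cre-negative 2, as both lectins were. So were Tat, Fabp6, Fut2, Slc10a2, B3galt5 and Pla2g5, while Lct, Fgf15, Onecut2 and Slc2a2 were not. B3galt5 and Pla2g5 were also lowest in Cre-negative 1, as the lectins were.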
